A study of Mus musculus with 30 samples.

Results

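The 32 genes described here encode subunits of the receptors for glutamate and GABA, the main excitatory and inhibitory transmitters of the brain. They were chosen by name from the Gria, Grik, Grin, Grm, Gabra, Gabrb, Gabrg, Gabrd and Gabbr families, with earlier results of these data known. All 32 were found among the 48820 genes of the count table. They comprise 4 AMPA, 5 kainate and 6 NMDA receptor subunits, 6 metabotropic glutamate receptors, 9 GABA-A subunits and 2 GABA-B subunits. Other members of these families were not analysed here. All 32 passed the filter on low counts in both tissues.

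The study modelled Gulf War Illness in wild type, adult male C57BL/6J mice aged 8 to 12 weeks. Every mouse drank corticosterone (CORT, the main glucocorticoid of rodents; 200 mg/L in 0.6% ethanol) for 7 days. On day 8 it received diisopropyl fluorophosphate (DFP, an organophosphate inhibitor of acetylcholinesterase; 4 mg/kg, intraperitoneal), and further 7-day courses of CORT followed in alternate weeks until week 5. The last treatment was saline or lipopolysaccharide (LPS, a bacterial cell wall component that activates innate immunity; 0.5 mg/kg, subcutaneous). Both brain regions, hippocampus and frontal cortex, were sampled. The saline group gave 3 libraries of each region at 6 h, and the LPS groups gave 4 of each region at 6, 12 and 24 h, with 1 mouse behind each library. There was no group without CORT and DFP, so each comparison is between exposed mice. Because saline was sampled at 6 h alone, the LPS effect at 12 h and 24 h cannot be told apart from time of day or time since injection.

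AMPA, kainate and NMDA receptors are cation channels made of 4 subunits that glutamate opens, and their subunit make-up sets conductance, kinetics and calcium entry. Metabotropic glutamate receptors and the GABA-B receptor act through G proteins, before and after the synapse. GABA-A receptors are chloride channels made of 5 subunits: those with a gamma subunit carry most synaptic inhibition, and those with alpha5 or delta subunits carry much of the tonic inhibition outside synapses. In the hippocampus these receptors serve long-term potentiation and the control of excitability.

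The libraries held 16826882 to 33034295 counts. Dentate markers fitted the labelled tissues: the summed CPM (counts scaled to library size) of 4 dentate granule neuron markers were 245.1 to 258.4 in the saline hippocampus and 15.4 to 20.2 in the saline cortex. Other regional markers were mixed. Of 5 cortical projection markers, Foxp2, Rorb and Cux2 were higher in saline cortex, Fezf2 was higher in saline hippocampus and Tle4 did not differ. Of 3 CA1 markers, Fibcd1 and Pou3f1 were higher in hippocampus and Wfs1 did not differ (edgeR adjusted p under 0.05). Some libraries stood apart in markers of neighbouring tissue. Markers of choroid plexus, a secretory tissue beside the hippocampus, summed to 1308 CPM in the saline hippocampus of mouse A222 and 2389 CPM in the 12 h hippocampus of mouse A261, against 44.5 to 399 CPM in the other hippocampal libraries. In cortex the same sum was 1039 CPM in the saline library of A224 against 93.3 and 44.0 CPM in the other saline libraries, and 12.8 to 473 CPM after LPS. Among saline cortices, 7 striatal neuron markers summed to 360, 833 and 186 CPM (mice A223, A224 and A226). The mitochondrial share of counts was 11.5% in the 6 h cortex of A240, the highest of the cortical libraries, and results were also computed without it. In cortex this share was 8.33% to 9.64% after saline, 6.54% to 8.15% at 12 h and 6.62% to 7.87% at 24 h, without overlap with saline at either time; its part in the cortical changes was not tested. The spread of the subunits within groups was wider in the cortex, with a median SD of log2 CPM of 0.119 against 0.088 in the hippocampus. Expression was measured in whole tissue, in which fewer cells of a type and less RNA per cell cannot be told apart.

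After saline, the 2 tissues differed in the make-up of nearly every receptor family. Of the 32 genes, 24 differed between hippocampus and frontal cortex (edgeR quasi-likelihood test, adjusted p under 0.05), against 37.1% of all genes tested. Of these, 15 were higher in hippocampus (19.9% of all genes were) and 9 were higher in cortex (17.2% of all genes). The genes with the greatest excess in hippocampus were Gabra5, Gria1, Grik4, Gabra2, Grm5 and Grin2a. Those with the greatest excess in cortex were Gabrd, Grm8, Grm4, Gabra3, Grm3 and Grik3. The count was 22 without the hippocampal libraries of mice A222 and A261, and 24 or 20 with the mouse as a block (as a random or a fixed effect).

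Gabra5 encodes the alpha5 subunit of GABA-A receptors outside synapses, which are known for their abundance in the hippocampus. It stood at 183, 203 and 218 CPM in the saline hippocampus and 53.1, 55.4 and 61.6 CPM in the saline cortex, a log2 difference of 1.83 ± 0.07 (SE, adjusted p = 3.75e-19). Gria1, encoding the AMPA subunit GluA1 whose trafficking underlies much of synaptic potentiation, stood at 1149, 1184 and 1262 CPM against 336.3, 336.5 and 373 CPM (1.78 ± 0.07, adjusted p = 2.97e-20). Grik4, encoding the high-affinity kainate subunit GluK4, which is known from CA3 pyramidal and dentate granule neurons, stood at 65.2, 67.0 and 71.6 CPM against 20.6, 22.1 and 25.7 CPM (1.57 ± 0.08, adjusted p = 2.60e-17). For these genes the lowest hippocampal library was above the highest cortical one by a wide margin. Smaller excesses were found for Gabra2 (GABA-A alpha2, 0.94 ± 0.18), Grm5 (the Gq-coupled receptor mGlu5, 0.93 ± 0.07) and Grin2a (the NMDA subunit GluN2A, 0.85 ± 0.17).

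In the opposite direction, Gabrd encodes the delta subunit of neurosteroid-sensitive GABA-A receptors outside synapses. It stood at 20.2, 21.3 and 26.3 CPM in hippocampus and 81.5, 81.9 and 84.9 CPM in cortex (-1.87 ± 0.10, adjusted p = 2.51e-16). The presynaptic group III receptors Grm8 (-1.24 ± 0.12) and Grm4 (-1.15 ± 0.18) were also lower in hippocampus, whereas Grm7 of the same group was higher there (0.30 ± 0.08). Gabra3, the GABA-A alpha3 subunit, was lower in hippocampus by -0.96 ± 0.07. So were the group II receptor Grm3, which neurons and astrocytes express (-0.81 ± 0.12), and the kainate subunit gene Grik3 (-0.67 ± 0.14). The 8 genes that were not called were Gria3, Grin1, Grin2c, Grin2d, Gabra4, Gabrb2, Gabbr1 and Gabbr2, with log2 differences from -0.21 (Gria3) to 0.18 (Gabbr2). They included the subunits without which a functional receptor does not form, Grin1 for NMDA and both for GABA-B.

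**Figure D1:**
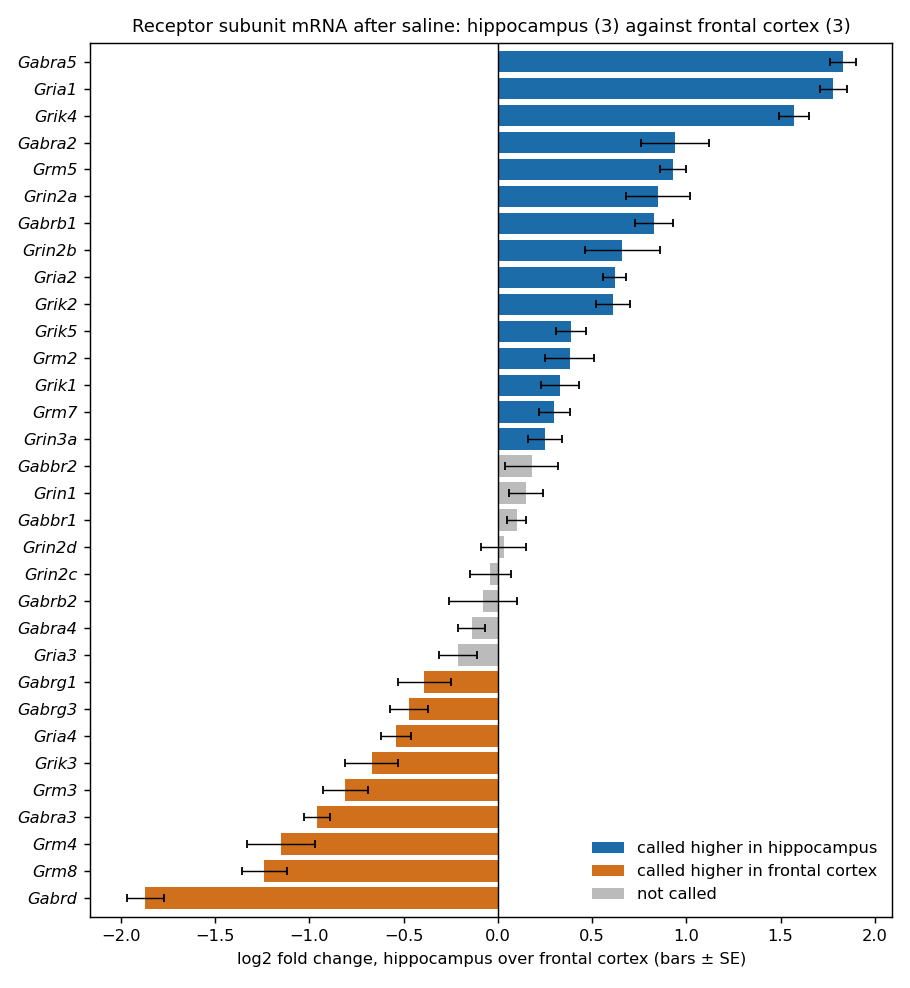
Log2 fold change of the 32 subunit mRNAs between hippocampus and frontal cortex after saline (3 libraries each, horizontal axis), with bars showing the edgeR estimate ± SE and colours showing whether the adjusted p was under 0.05. The bars run from 1.83 for Gabra5 to -1.87 for Gabrd, with 15 genes called higher and 9 called lower in hippocampus.

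Neighbouring GABA-A genes did not share a direction. Gabrg1, Gabra2, Gabra4 and Gabrb1 lie in that order on chromosome 5 (GRCm38, from 70751047 to 72149037). Gabra2 and Gabrb1 were higher in hippocampus (0.94 and 0.83), Gabrg1 was lower (-0.39 ± 0.14) and Gabra4 was not called (-0.14 ± 0.07). On chromosome 7, Gabrg3 (56716465 to 57387188) lies beside Gabra5 (57407672 to 57510059). Gabrg3 was lower in hippocampus by -0.47 ± 0.10 while Gabra5 was higher by 1.83. Gabrg1 was no longer called without the hippocampal library of A222 or A226 or the cortical library of A224.

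Levels of different genes were compared as CPM per kilobase of exon. In the saline hippocampus Gria1 ranked first with 198 ± 9.57 CPM per kb (SD, n = 3), followed by Gabbr1 (106 ± 2.98), Gabra5 (67.7 ± 5.84), Grik5 (53.5 ± 1.54), Gabbr2 (52.2 ± 2.64) and Gria2 (51.3 ± 3.10). Grik5, Gabbr2 and Gria2 lay within 1 SD of each other and have no clear order. In the saline cortex Gabbr1 ranked first with 98.7 ± 2.54 CPM per kb, ahead of Gria1 (57.7 ± 3.51), Gabbr2 (46.2 ± 8.07), Grik5 (40.8 ± 1.44) and Gabra3 (38.3 ± 1.53). Gabbr2 could not be separated from Grik5 or Gabra3 in the cortex given its spread. These orders hold for the union of exons. Per kb of the longest transcript, Grin1 rose in rank, to 78.4 in hippocampus (beside Gria2 at 76.8, Gabra5 at 75.4 and Grik5 at 68.1) and to 70.5 in cortex, above Gria1 at 62.9, while Gria1 and Gabbr1 stayed first in hippocampus and cortex, at 216 and 146. Per kb of all exons, the lowest member in hippocampus was Grm8 at 0.746 ± 0.0698 CPM per kb, and the lowest in cortex was Grik1 at 1.34 ± 0.102.

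Within families these levels gave different mixtures in the 2 tissues. Gria1 made up 71.5% ± 0.724 of the summed AMPA level per kb in the saline hippocampus and 45.8% ± 1.497 in the saline cortex (SD, n = 3). Gria3 and Gria4 took 7.11% and 2.96% in hippocampus, and 18.1% and 9.50% in cortex. Among the 4 alpha subunits measured here, Gabra5 took 58.1% ± 0.612 in hippocampus and 23.1% ± 1.58 in cortex, where Gabra3 took 46.3% ± 2.37. Among kainate subunits Grik5, the high-affinity subunit GluK5 that needs a GluK1 to GluK3 partner, took 70.8% ± 1.51 and 71.7% ± 1.69, while Grik4 took 15.1% ± 0.790 in hippocampus and 6.72% ± 0.894 in cortex. These shares describe mRNA and depend on the exon length used.

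**Figure D2:**
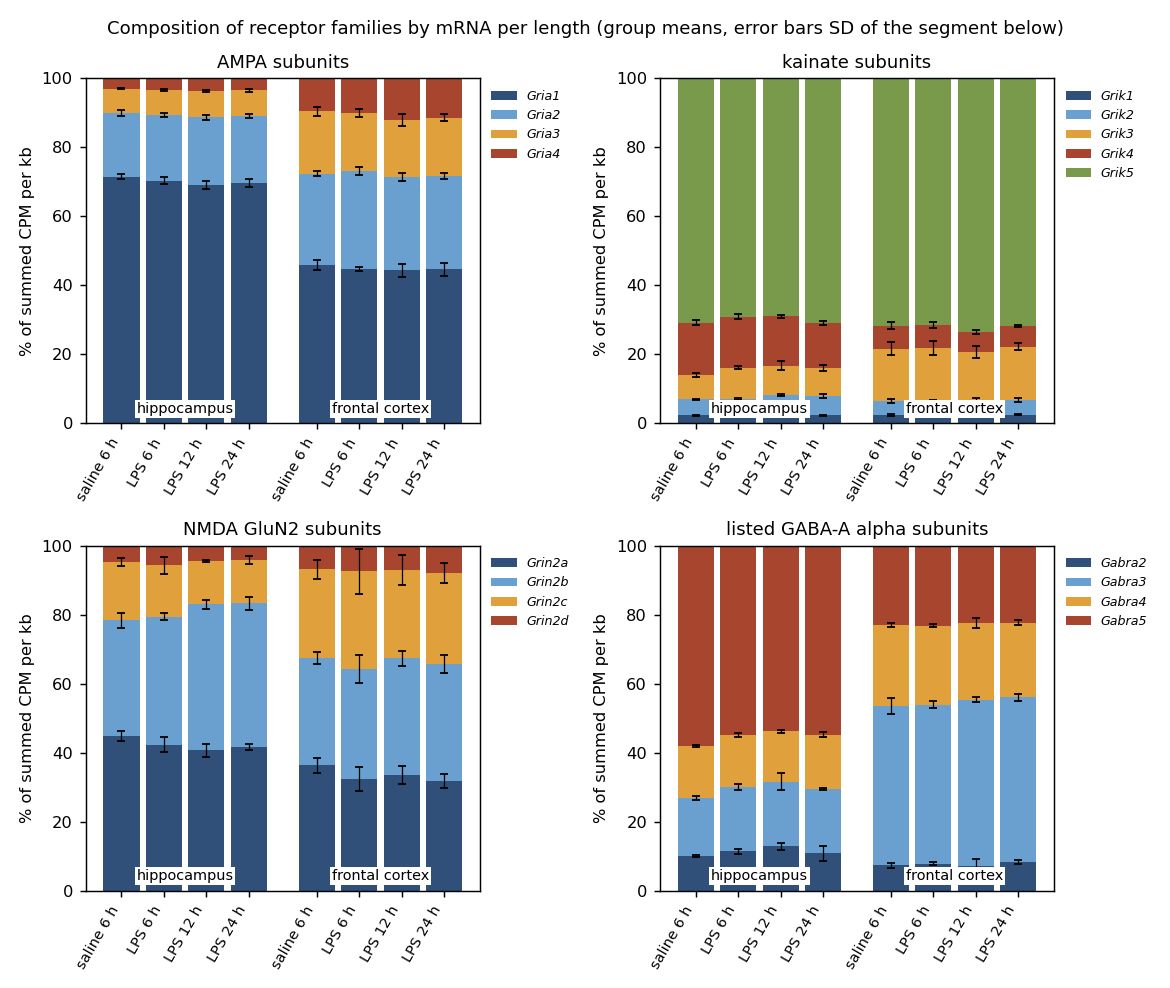
Share of each subunit in the summed CPM per kb of its family (vertical axis, percent) by tissue and group, shown as stacked group means with the SD of the segment below each error bar (3 saline and 4 LPS libraries per group). Gria1 fills 71.5% of the AMPA bar in the saline hippocampus and 45.8% in the saline cortex, and the Grin2b segment in hippocampus widens from 33.6% after saline to 42.3% at 12 h.

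After LPS, changes were small and fell on a minority of the subunits. In the hippocampus 2 of 32 genes differed from saline at 6 h (5.11% of all genes did), 8 at 12 h (12.3% of all genes) and 8 at 24 h (13.4% of all genes). Of all genes, 2.96%, 6.07% and 6.76% rose and 2.15%, 6.28% and 6.6% fell at the respective times. At 6 h Grm3 rose and Grin2c fell. At 12 h Grm3, Grin2b and Grin3a rose, and Gria1, Grin1, Grin2c, Grik4 and Gabbr1 fell. At 24 h Grin2b and Grin3a rose, and Gria1, Grin1, Grin2c, Grik4, Grm2 and Gabbr2 fell. The 3 comparisons share their saline libraries. The median log2 change of the 32 was -0.02 at 12 h and -0.04 at 24 h, beside 0.006 and -0.003 for all genes.

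In the frontal cortex no subunit was called at 6 h by edgeR (3.5% of all genes were, 2.3% higher and 1.2% lower), with 6 at an unadjusted p under 0.05 and 1 called by DESeq2 and by limma-voom. At 12 h 4 fell, against 7.12% of all genes called, 4.13% higher and 2.99% lower: Gria1, Gria2, Grin2c and Gabrg3. At 24 h Gria1 alone fell (6.11% of all genes were called, 3.73% higher and 2.38% lower). The median change of the 32 was -0.11 at 6 h, -0.15 at 12 h and -0.09 at 24 h, beside 0.013, 0.009 and -0.001 for all genes. In total 12 members were called in at least 1 of the 6 comparisons with saline, 10 in hippocampus and 4 in cortex, and 20 were called in none. The share of all genes called in at least 1 of these comparisons is not given here. These totals, and their split between tissues, therefore cannot be set against all genes.

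These counts depended on a few libraries and on the fit. Without the hippocampal libraries of A222 and A261, 1, 2 and 4 genes were called in hippocampus at 6, 12 and 24 h. The genes that remained were Grm3 at 6 h, Grm3 and Grin2c at 12 h, and Gria1, Grin1, Grin2c and Grik4 at 24 h. With both tissues in 1 fit, with or without the mouse as a block, 1, 5 and 5 were called in hippocampus and 1, 7 and 6 in cortex. Leaving out A222 and A261 also left fewer saline and 12 h libraries to compare. The share of all genes called under these settings is not given here, so these moves cannot be called particular to the subunits.

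**Figure D3:**
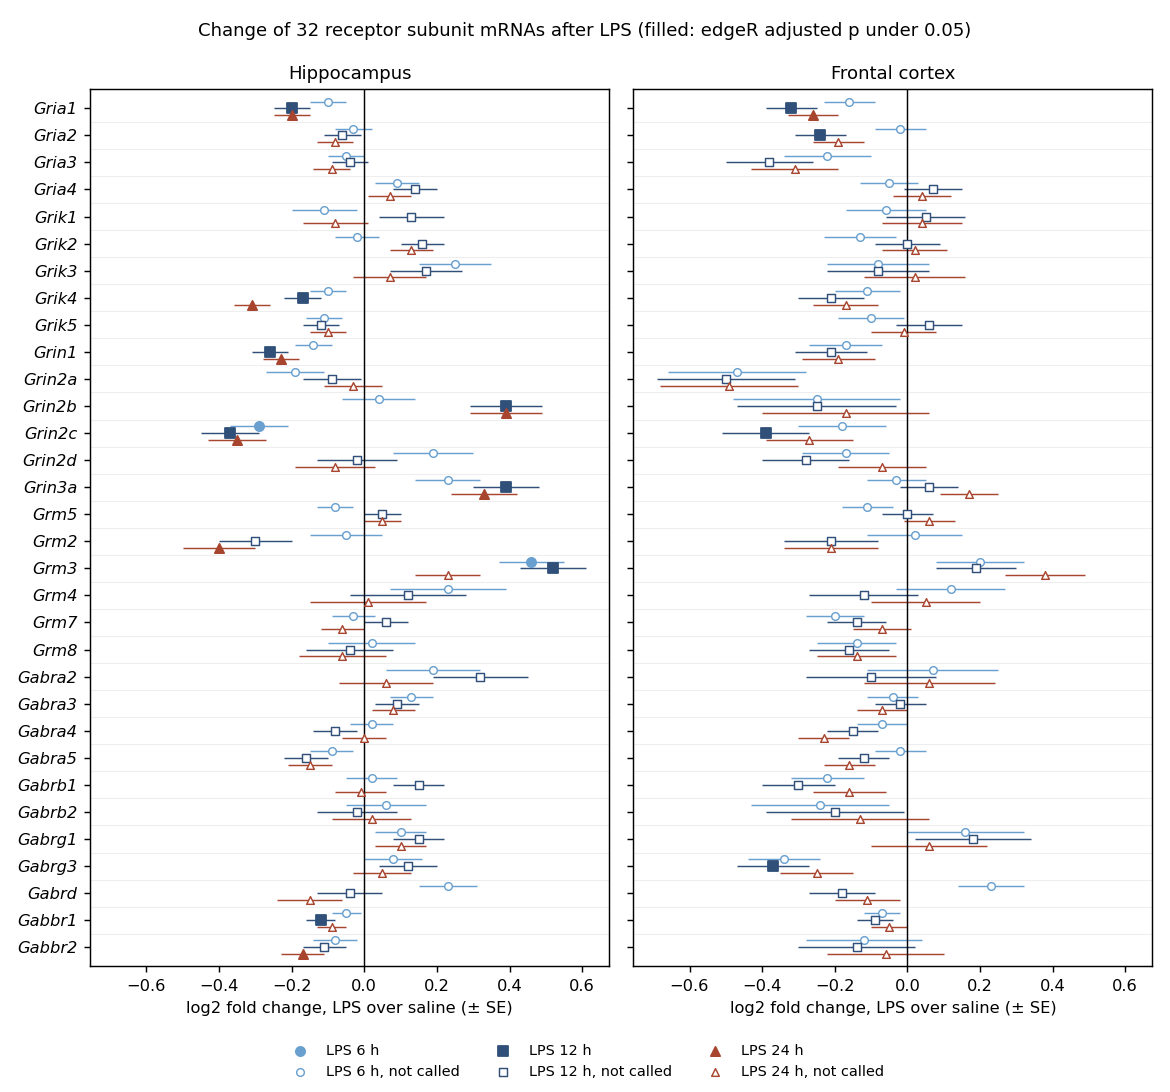
Log2 fold change after LPS against saline (horizontal axis, ± SE) for the 32 subunits in hippocampus (left) and frontal cortex (right) at 6, 12 and 24 h, with filled symbols for an edgeR adjusted p under 0.05. The estimates lie between -0.50 (Grin2a, cortex, 12 h) and 0.52 (Grm3, hippocampus, 12 h), and 12 genes have a filled symbol.

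The sequence upstream of the gene start is shown for Grin2c and Grm3, the members called first, and for Grin1, the obligatory NMDA subunit. Their changes differed in direction. Of the 32 genes, 23 matched a start site in the RefSeq table (GRCm38.p6), and the window is the 250 bases before it, on the gene's own strand from 5′ to 3′. Gria1, Grin2b and Grin3a were also picked for display but had no window. Capitals mark the GC box GGGCGG on either strand, a motif bound by Sp1 family factors. These are the windows of Grin1 (chr2:25319188-25319437, minus strand), Grin2c (chr11:115267244-115267493, minus strand) and Grm3 (chr5:9725353-9725602, minus strand).
Grin1: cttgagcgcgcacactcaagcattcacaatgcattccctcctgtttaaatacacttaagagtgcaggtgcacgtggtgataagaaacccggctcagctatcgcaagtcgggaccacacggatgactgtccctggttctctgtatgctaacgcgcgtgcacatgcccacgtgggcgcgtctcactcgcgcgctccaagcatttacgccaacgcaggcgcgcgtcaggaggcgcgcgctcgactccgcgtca
Grin2c: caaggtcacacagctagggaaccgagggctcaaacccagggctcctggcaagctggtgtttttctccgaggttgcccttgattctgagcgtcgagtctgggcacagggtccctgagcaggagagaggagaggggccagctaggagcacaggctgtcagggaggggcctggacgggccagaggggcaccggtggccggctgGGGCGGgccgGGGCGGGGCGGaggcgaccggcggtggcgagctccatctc
Grm3: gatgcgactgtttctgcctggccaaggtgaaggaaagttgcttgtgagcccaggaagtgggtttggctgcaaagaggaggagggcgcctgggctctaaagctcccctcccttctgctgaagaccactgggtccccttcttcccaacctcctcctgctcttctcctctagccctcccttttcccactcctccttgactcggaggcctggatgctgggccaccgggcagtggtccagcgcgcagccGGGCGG
The Grin1 window holds no GC box, that of Grin2c holds 3, of which the last pair shares a base, and that of Grm3 holds 1. A GC box was found in 14 of 23 member windows (60.9%), against 32.7% of 32851 windows of all genes. Member windows were also richer in G and C, with a median of 64.4% against 52.4%. The sides are not alike: each member gave 1 window, the nearest to its gene start, whereas genes with several start sites gave several of the 32851. The Grin2d window lay 11697 bases from its gene start.

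Other motifs were searched on both strands in the same windows. The E-box CACGTG occurred in 1 member, Grin1 (4.35% of members, 6.02% of all windows). The half-site AGAACA of the glucocorticoid receptor occurred in 1 member, Gabrb2 (4.35% against 16.1%). The cyclic AMP response element TGACGTCA occurred in no member window and 1.55% of all. The kappaB motif (GGGA, any base, TTTCC) was in none of the members and 0.356% of all windows, and the interferon-stimulated motif (GAAA, any 2 bases, GAAA) in none and 2.98%. These are matches of letters in 1 window per member and were not tested against the expression changes.

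Among AMPA subunits, Gria1 was lower in both tissues. In hippocampus it stood at 1149, 1184 and 1262 CPM after saline and at 986, 1023, 1026 and 1136 CPM at 12 h, a log2 change of -0.20 ± 0.05 (adjusted p = 0.00604). At 24 h it stood at 988, 1040.0, 1070.0 and 1082 CPM (-0.20 ± 0.05, adjusted p = 0.00592). Every library at 12 h and 24 h was below every saline library. The calls at 12 h and 24 h were lost without the saline library of A224. In cortex Gria1 fell from 336.3, 336.5 and 373 CPM to 266, 279.3, 279.8 and 293 CPM at 12 h (-0.32 ± 0.07, adjusted p = 0.00619), and this call held with each library left out in turn. At 24 h it was 284, 284, 287 and 311 CPM (-0.26 ± 0.07, adjusted p = 0.0286), again with no overlap, but the call was lost without any 1 of 5 of the 7 libraries compared.

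Gria2 encodes GluA2, the subunit that makes AMPA receptors nearly impermeable to calcium. In the cortex it stood at 496, 513 and 552 CPM after saline and 399, 446, 455 and 458 CPM at 12 h (-0.24 ± 0.07, adjusted p = 0.0339), with no overlap. The call was lost without the saline library of A223 or A224 or the 12 h library of A260. In hippocampus Gria2 changed by -0.08 to -0.03 and was not called. Gria3 in cortex had a change of -0.38 ± 0.12 at 12 h that missed the threshold (adjusted p = 0.0588). Gria4 was called in no comparison with saline. The Gria1 share of the AMPA level per kb was 69.1% to 70.4% in the LPS groups of hippocampus, beside 71.5% after saline. The Gria4 share was 2.96% ± 0.0786 after saline and 3.63% ± 0.261 at 12 h in hippocampus, and 9.50% ± 0.955 and 12.0% ± 0.256 in cortex. In both tissues every 12 h library had a larger Gria4 share than every saline library.

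Among kainate subunits, Grik4 fell in the hippocampus. It stood at 65.2, 67.0 and 71.6 CPM after saline, 57.9, 60.2, 60.9 and 62.4 CPM at 12 h (-0.17 ± 0.05, adjusted p = 0.0236), and 53.9, 54.9, 55.2 and 55.5 CPM at 24 h (-0.31 ± 0.05, adjusted p = 8.85e-05). The groups did not overlap, and the 24 h libraries lay within a narrow band below those at 12 h. The 24 h call held under all 10 other settings and with each library left out. The 12 h call was kept in 5 of 10 other settings and was lost without the library of A222, A224 or A261. It was also lost with both tissues in 1 fit, with or without the mouse as a block. In cortex the Grik4 estimates were -0.11, -0.21 and -0.17, none called. Of 3 CA3 neuron markers, 1 was lower at 12 h and at 24 h (Bok, -0.28 ± 0.07 and -0.44 ± 0.07). The sum of the 3 was 225.0 to 243.8 CPM after saline, 185.7 to 236.9 CPM at 12 h and 201.8 to 216.0 CPM at 24 h. Of 4 dentate markers, 2 were lower at 12 h and 1 at 24 h. Their sum overlapped the saline range of 245.1 to 258.4 CPM at 12 h (209.5 to 276.1) and 24 h (236.4 to 254.5). Their part in the Grik4 change was not tested. The other 4 kainate subunit genes, Grik1, Grik2, Grik3 and Grik5, were not called in either tissue, with changes from -0.12 to 0.25 in hippocampus and -0.13 to 0.06 in cortex.

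The NMDA subunits moved in opposite directions in the hippocampus. Grin1 encodes GluN1, which every NMDA receptor contains. It stood at 321, 323 and 362 CPM after saline and at 258.6, 273.5, 281 and 304 CPM at 12 h (-0.26 ± 0.05, adjusted p = 0.00171). At 24 h it stood at 271, 286, 287 and 301 CPM (-0.23 ± 0.05, adjusted p = 0.00563). No LPS library at 12 h or 24 h reached the saline range. The 24 h call was lost without the saline library of A222 alone. It was also lost with both tissues in 1 fit, with or without the mouse as a block. Part of the Grin1 locus, 1307 bases or 13.5% of its exon length, is shared with the antisense gene Grin1os, whose reads cannot be assigned without the strand setting. In cortex Grin1 was not called (-0.21 ± 0.10 at 12 h).

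Grin2c encodes GluN2C, known from cerebellar granule neurons and, in the forebrain, from astrocytes and some interneurons. In hippocampus it stood at 39.1, 39.4 and 40.0 CPM after saline, with little spread. It was 29.7, 29.8, 32.6 and 37.9 CPM at 6 h (-0.29 ± 0.08, adjusted p = 0.0268), 28.0, 29.2, 31.8 and 32.5 CPM at 12 h (-0.37 ± 0.08, adjusted p = 0.00159), and 29.0, 29.1, 31.1 and 34.8 CPM at 24 h (-0.35 ± 0.08, adjusted p = 0.00279). All 12 LPS libraries were below the 3 saline libraries. The 12 h and 24 h calls held under all 10 other settings and with each library left out, whereas the 6 h call was kept with 1 of 7 libraries left out. In cortex Grin2c was 39.3, 40.9 and 41.6 CPM after saline and 24.2, 29.4, 31.8 and 38.4 CPM at 12 h (-0.39 ± 0.12, adjusted p = 0.0491), a call also kept with 1 of 7 libraries left out.

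Grin2b encodes GluN2B, which predominates early in development and gives slow, calcium-rich currents. In hippocampus it stood at 339, 406 and 417 CPM after saline, 458, 466, 521 and 573 CPM at 12 h (0.39 ± 0.10, adjusted p = 0.0229), and 441, 475, 529 and 590 CPM at 24 h (0.39 ± 0.10, adjusted p = 0.0187). Every library at 12 h and 24 h was above every saline library, and at 6 h (368, 397, 404 and 432 CPM) the groups overlapped. Both calls were lost without the saline library of A222, and with both tissues in 1 fit, with or without the mouse as a block. The 12 h call was also lost without the 12 h library of A259. Grin3a encodes GluN3A, a glycine-binding subunit that lowers calcium permeability. It stood at 37.9, 38.1 and 41.8 CPM after saline, 45.1, 46.7, 51.0 and 63.3 CPM at 12 h (0.39 ± 0.09, adjusted p = 0.00522), and 45.7, 47.5, 51.0 and 53.2 CPM at 24 h (0.33 ± 0.09, adjusted p = 0.0175). Its saline and LPS libraries did not overlap, and the 24 h call was lost without the saline library of A222 or A226.

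With these changes the mixture of GluN2 subunits per kb shifted in hippocampus. Grin2b made up 33.6% ± 2.21 after saline (SD, n = 3), 37.1% ± 0.990 at 6 h, 42.3% ± 1.29 at 12 h and 41.7% ± 1.86 at 24 h (n = 4 each). Grin2c went from 16.96% ± 1.11 to 14.96% ± 2.45, 12.6% ± 0.338 and 12.6% ± 1.21. The Grin2a share was 44.8% ± 1.47 after saline and 40.7% to 42.3% after LPS. In cortex the Grin2b share was 31.1% to 34.0% in all 4 groups. Grin2a and Grin2d were not called in either tissue. Grin2a had the lowest estimates in cortex at each time (-0.47 ± 0.19, -0.50 ± 0.19 and -0.49 ± 0.19), with saline libraries at 166, 211 and 242.2 CPM that overlapped the LPS libraries.

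Among metabotropic receptors, the group II receptors Grm2 and Grm3, which inhibit adenylyl cyclase, differed in direction in the hippocampus. Grm3 stood at 25.3, 26.6 and 29.1 CPM after saline and rose to 34.2, 36.7, 38.5 and 39.2 CPM at 6 h (0.46 ± 0.09, adjusted p = 0.0028). At 12 h it stood at 35.5, 38.3, 38.4 and 42.2 CPM (0.52 ± 0.09, adjusted p = 0.000371), with no overlap at either time. Both calls held under all 10 other settings and with each library left out. At 24 h its libraries (A276 just below the lowest saline library, the others 32.9, 33.5 and 35.5 CPM) overlapped the saline range and the change of 0.23 ± 0.09 was not called. In cortex Grm3 was not called, and its estimate at 24 h was 0.38 ± 0.11 (adjusted p = 0.0633). Grm2, a mostly presynaptic receptor, stood at 59.97, 64.2 and 78.9 CPM after saline and 42.2, 53.3, 53.7 and 56.2 CPM at 24 h (-0.40 ± 0.10, adjusted p = 0.0164). The groups did not overlap, and the call was lost without the saline library of A222. Antisense gene Gm28111 shares 9.6% of the Grm2 exon length. Grm4, Grm5, Grm7 and Grm8 were not called after LPS in either tissue.

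Levels of astrocyte markers moved over the same comparisons. Of 6 markers, Gfap (1.21 ± 0.15) and Aqp4 (0.60 ± 0.06) rose and Aldoc (-0.23 ± 0.05) and Gja1 (-0.24 ± 0.05) fell in hippocampus at 12 h. Their summed level was 2098 to 2142 CPM after saline, 2189 to 2260 CPM at 6 h, 2187 to 2424 CPM at 12 h and 1954 to 2195 CPM at 24 h. Of 4 excitatory neuron markers, Camk2a (-0.27 ± 0.05) and Slc17a7 (-0.15 ± 0.05) fell in hippocampus at 12 h and Camk2a (-0.31 ± 0.05) at 24 h. Their sum was 7860 to 8088 CPM after saline, 6407 to 7666 CPM at 12 h and 6791 to 6952 CPM at 24 h. All 6 microglial markers rose in hippocampus at 24 h, from a sum of 188.3 to 234.2 CPM to one of 326.7 to 358.4 CPM. No marker of these 3 lists was at 0. In cortex, where Gria1 and Gria2 fell, the excitatory marker sum was 6115 to 7655 CPM after saline and 5694 to 6688 CPM at 12 h, and Neurod6 of this list rose (0.33 ± 0.08). A sum of 6 pan-neuronal markers was 6324 to 7571 CPM after saline in cortex, 5698 to 6342 CPM at 12 h and 5796 to 6528 CPM at 24 h. In hippocampus this sum was 5610 to 5807 CPM after saline, 5175 to 5842 CPM at 12 h and 5366 to 5532 CPM at 24 h. The part of these cell types in the receptor changes was not tested.

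Of the 9 GABA-A subunits none was called in hippocampus at any time after LPS against saline, with changes from -0.16 to 0.32. At 12 h 3 of the 9 had an unadjusted p under 0.05, beside 4120 of the 17289 genes tested. In cortex Gabrg3, encoding the gamma3 subunit, stood at 24.0, 24.2 and 26.3 CPM after saline and 18.02, 18.7, 19.5 and 20.7 CPM at 12 h (-0.37 ± 0.10, adjusted p = 0.0235). The groups did not overlap. At 6 h its libraries (16.8, 19.6, 20.2 and 21.4 CPM) were also below the saline range, but the change of -0.34 ± 0.10 missed the threshold (adjusted p = 0.0624). The 12 h call was lost without any 1 of the 3 saline libraries or the 12 h library of A261. Gabra5, the most abundant GABA-A subunit per kb in hippocampus, had estimates of -0.09, -0.16 and -0.15 and was not called.

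The GABA-B subunits, of which Gabbr1 binds GABA and Gabbr2 couples to the G protein, were each called in hippocampus once. Gabbr1 stood at 800.3, 813 and 845 CPM after saline and 724, 745, 751 and 797 CPM at 12 h (-0.12 ± 0.04, adjusted p = 0.0487). Gabbr2 stood at 336, 343 and 369 CPM after saline and 296, 303, 317 and 325 CPM at 24 h (-0.17 ± 0.06, adjusted p = 0.0436). Neither pair of groups overlapped, but the Gabbr1 call held in 2 of 10 other settings and the Gabbr2 call in 6 of 10. Leaving out 1 library kept the Gabbr1 call in 1 of 7 cases and the Gabbr2 call in 2 of 7. In cortex neither was called.

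**Figure D4:**
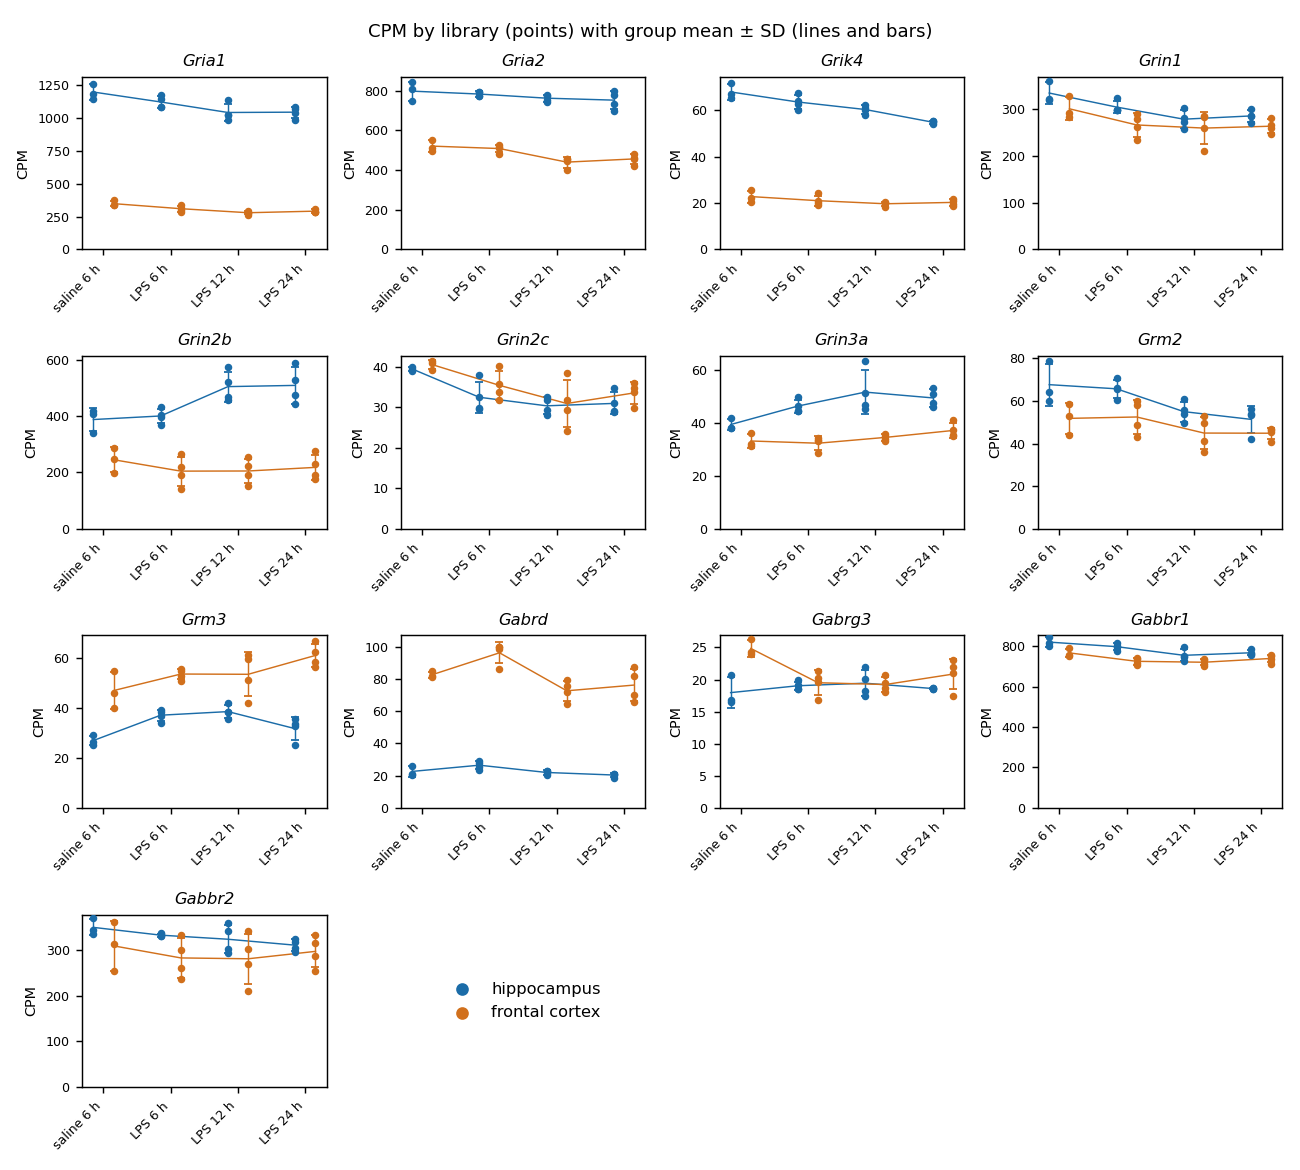
CPM of 13 subunits in every library (points) by group, with group means joined by lines and bars for the SD, hippocampus in blue and frontal cortex in orange; vertical axes start at 0. The panels show Grin2c below its saline range in all 12 hippocampal LPS libraries, Grin2b above it at 12 h and 24 h, and Gabrd highest at 6 h after LPS.

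The 20 members called in no comparison with saline included abundant ones. In hippocampus those with the highest level per kb after saline were Gabra5 (67.7), Grik5 (53.5), Grm5 (28.2), Grin2a (20.8), Gria3 (19.7) and Gabra3 (19.7 CPM per kb). Their 12 h changes were -0.16, -0.12, 0.05, -0.09, -0.04 and 0.09. Across all 20, estimates ran from -0.19 (Grin2a) to 0.25 (Grik3) at 6 h, -0.16 (Gabra5) to 0.32 (Gabra2) at 12 h and -0.15 (Gabra5) to 0.13 (Grik2) at 24 h in hippocampus. In cortex they ran from -0.47 to 0.23 (Gabrd), -0.50 to 0.18 (Gabrg1) and -0.49 to 0.06 (Grm5), each with Grin2a lowest. Data were simulated from the hippocampal libraries for 12 h against saline, over 17094 genes. The same edgeR test recovered 22% of 50 genes changed by 0.25 on the log2 scale and 68% of 50 changed by 0.5. Far fewer genes were changed there than were called in the real comparison, and cortex was not simulated. These shares therefore do not give the recovery of the members. A member that was not called may still have changed.

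Among LPS groups, the delta subunit gene Gabrd changed with time in both tissues. In cortex it stood at 86.6, 98.8, 99.9 and 100.3 CPM at 6 h and 64.5, 71.9, 75.5 and 79.2 CPM at 12 h (-0.41 ± 0.09, adjusted p = 0.022), with no overlap. At 24 h (65.6, 70.3, 82.2 and 87.3 CPM) it was also lower than at 6 h, by -0.34 ± 0.09 (adjusted p = 0.0475), with the groups overlapping. In hippocampus it fell from 23.6, 25.6, 27.9 and 28.9 CPM at 6 h to 18.8, 20.5, 20.9 and 21.3 CPM at 24 h (-0.37 ± 0.08, adjusted p = 0.00398). The 6 h level was above saline by 0.23 ± 0.08 in hippocampus and 0.23 ± 0.09 in cortex, neither called (adjusted p = 0.163 and 0.197). The hippocampal call held under all 10 other settings and with each library left out. The cortical calls were lost without the 6 h library of A240, A242 or A243, among others.

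Beside Gabrd, 3 genes changed between 6 h and 24 h in hippocampus, making 4 in all against 9.49% of all genes. Grik4 (-0.20 ± 0.05, adjusted p = 0.00568) and Grm2 (-0.35 ± 0.10, adjusted p = 0.0336) were lower at 24 h, and Grin2b was higher (0.35 ± 0.09, adjusted p = 0.03). With both tissues in 1 fit, with or without the mouse as a block, 2 genes were called. Leaving out 1 library kept the Grm2 call in 2 of 8 cases and the Grin2b call in 3 of 8. From 6 h to 12 h and from 12 h to 24 h edgeR called none in hippocampus (2.14% of all genes in each). At an unadjusted p under 0.05 there were 8 and 5 subunits, beside 2595 and 2587 of the 17289 genes tested. DESeq2 called 1 subunit in each and limma-voom none. In cortex Gabrd was the 1 gene called from 6 h to 12 h (1.23% of all genes) and from 6 h to 24 h (1.83%). From 12 h to 24 h no subunit and no gene of the cortex was called (0.0% of all genes). Among the subunits none had an unadjusted p under 0.05, beside 310 of the 17111 genes tested, and DESeq2 and limma-voom called none of the subunits.

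Whether the response differed between tissues was tested as an interaction in a fit of all 30 libraries. No subunit was called at 6, 12 or 24 h by edgeR, DESeq2 or limma-voom, where edgeR called 0.0%, 0.0963% and 0.125% of all genes. At an unadjusted p under 0.05 there were 4, 7 and 4 subunits, beside 1031, 1744 and 1484 of the 17650 genes tested. The largest estimates were for Grin2b, whose response in hippocampus exceeded that in cortex by 0.64 ± 0.26 at 12 h (adjusted p = 0.406) and 0.56 ± 0.26 at 24 h (adjusted p = 0.567). The smallest adjusted p was that of Gabrg3 at 12 h (0.49 ± 0.13, adjusted p = 0.137). A call in 1 tissue and not in the other, as for Grm3, Grin1, Grin2b or Gabrg3, therefore does not show that the tissues differ.

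Genes whose products work with these receptors were counted from lists. In hippocampus 7 of 18 excitatory scaffold and trafficking genes fell at 12 h and 7 at 24 h, and none rose, where 6.28% and 6.6% of all genes fell. Camk2a of this list is also one of the excitatory neuron markers above. The genes that fell included the calcium/calmodulin kinase genes Camk2b (-0.42 ± 0.06 at 12 h, adjusted p = 1.74e-05) and Camk2a (-0.27 ± 0.05, adjusted p = 0.000303) and the scaffold gene Dlg3 (SAP102, -0.21 ± 0.05). Of 17 AMPA and kainate auxiliary subunit genes, 1, 2 and 4 fell at 6, 12 and 24 h and none rose. Of all genes, 2.15%, 6.28% and 6.6% fell at these times. Cnih2, a cornichon that aids AMPA receptor export, changed by -0.30 ± 0.06 at 12 h and -0.32 ± 0.06 at 24 h, Shisa7 by -0.40 ± 0.07 at 24 h and Cacng8 (TARP gamma-8) by -0.24 ± 0.06 at 24 h. In cortex 1 of the 17 (Neto1, -0.30 ± 0.08) and 1 of the 18 (Dlg3, -0.30 ± 0.08) fell at 12 h, and none were called at 6 h or 24 h. Of all genes, 2.99% fell in cortex at 12 h, so 1 gene does not set either list apart.

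On the inhibitory side, Plcl1 (PRIP-1, a GABA-A receptor trafficking protein) fell in hippocampus at 12 h (-0.28 ± 0.08) and 24 h (-0.29 ± 0.08) and in cortex at 12 h (-0.51 ± 0.11) and 24 h (-0.46 ± 0.11). In this list of 11 anchoring and trafficking genes, Gphn, the gephyrin scaffold, also fell in hippocampus at 24 h (-0.14 ± 0.04), and 2 genes in all fell in cortex at 12 h and 2 at 24 h. Of 7 GABA-B auxiliary and effector genes, the potassium channel gene Kcnj9 rose in hippocampus at 6 h (0.26 ± 0.06). In cortex Kcnj3 fell at 12 h (-0.41 ± 0.10) and 24 h (-0.38 ± 0.10), and Kctd8 at 24 h (-0.47 ± 0.12).

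In the list of 10 genes for glutamate synthesis, release and uptake, Glul (glutamine synthetase) fell in hippocampus at 6, 12 and 24 h (-0.24 ± 0.05, -0.57 ± 0.05 and -0.58 ± 0.05) and in cortex at 12 h and 24 h (-0.47 ± 0.06 and -0.43 ± 0.06). Slc17a7 fell in hippocampus at 12 h (-0.15 ± 0.05), and 1 gene of the list was higher there at 24 h. Of 8 genes for GABA synthesis, release and uptake, the GABA transporter gene Slc6a11 rose in hippocampus at 24 h (0.23 ± 0.06) and Slc6a13 fell in cortex at 12 h (-0.90 ± 0.12) and 24 h (-0.82 ± 0.12). Of 9 metabotropic signalling genes, Adcy1 (adenylyl cyclase 1; -0.50 ± 0.09 at 12 h, -0.58 ± 0.09 at 24 h) and Ncdn (neurochondrin, -0.30 ± 0.06 at both) fell in hippocampus and none was called in cortex. Of 9 genes for delta glutamate receptors and their ligands, 1 was higher in hippocampus at 12 h and 1 at 24 h, Grid1 fell there at 24 h (-0.18 ± 0.05), and the ligand gene Cbln4 fell in cortex at 12 h (-0.71 ± 0.16) and 24 h (-0.65 ± 0.16). Of all genes, 2.96%, 6.07% and 6.76% rose and 2.15%, 6.28% and 6.6% fell in hippocampus at 6, 12 and 24 h. In cortex 2.3%, 4.13% and 3.73% rose and 1.2%, 2.99% and 2.38% fell. In lists of 7 to 11 genes, 1 or 2 calls are too few to set a list apart from all genes.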

How the data were processed

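RNA was measured by poly(A) sequencing of 30 libraries from 16 mice, 14 of which gave both tissues. The deposited table holds raw counts per gene. The submitters' processing notes name the build GRCm38 and the tools STAR 2.6.0a, DESeq2, FastQC and Trim Galore 0.4.1. How reads were counted, with which strand setting and annotation, is not stated in the labels. Antisense or overlapping genes can therefore share reads.

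Counts were tested with edgeR 4.0.16 (TMM scaling, filterByExpr with a minimum count of 10, robust quasi-likelihood fit, two-sided, Benjamini-Hochberg over all genes of a comparison, threshold 0.05), with 1 fit of 15 libraries per tissue and 1 of all 30 for tissue differences and interactions. SE is the size of the log2 fold change divided by the square root of F. CPM used the TMM factors of the 30 libraries, and levels per kb the union exon length of GENCODE M21. Alternatives were DESeq2 1.42.0, limma 3.58.1 (voom), other scalings and filters, left-out libraries and the mouse as a block. The mouse codes in the labels pair the tissues: deviations from group means over 12229 genes correlated with a median r of 0.119 over 14 pairs, and the fitted consensus correlation was 0.11. The edgeR step was tested on simulated data. Promoter windows come from RefSeq, GRCm38.p6.

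The members and all gene lists were chosen with earlier results of these data known. Every subunit called after LPS against saline was described in full (at most 12 per comparison), the uncalled ones by range with the 6 of highest level per kb, and from the tissue comparison the 6 largest differences each way. Partner lists were described by up to 4 called genes per tissue, and a few called genes of these lists are not reported here. A hippocampal saline library that the submitters excluded for poor quality was not analysed here.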

Additional observations from a re-analysis of the deposited data

Results flagged for a closer look

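Within groups of 4 libraries, 10 of 192 sets of subunit values held a library far from the other 3, by a gap divided by the range above Dixon's critical value of 0.829; chance alone gives about 1 in 20. In hippocampus at 6 h, mouse A243 was high for Gria4 (ratio 0.976, 59.0 CPM against 54.0 to 54.2), A240 was high for Grin1 (0.953, 324 CPM against 298 to 299.6), and A242 was low for Grin2a (0.833, 286 CPM against 337 to 347) and Gabrb2 (0.839, 89.0 CPM against 107 to 110.1). At 12 h A260 was high for Grik5 (0.845, 266 CPM, the lowest at 247 CPM), and at 24 h A276 was low for Gabra2 (0.83, 63.0 CPM against 98.2 to 105). In cortex at 6 h, A240 was low for Grik1 (0.977, 7.75 CPM against 8.86 to 8.89), A241 was high for Grik2 (0.909, 30.9 CPM against 26.6 to 27.0) and A241 was low for Gabrd (0.894, 86.6 CPM against 98.8 to 100.3). At 24 h A276 was high for Gria1 (0.877, 311 CPM against 284 to 287).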

How the results depend on the processing

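No direction reversed: of 907 alternative values for single subunits, 762 kept their call and 145 lost it. These values cover only subunits called in the main fit. They pool the tissue differences after saline with the changes after LPS and between times. The pooled numbers therefore do not give how often the LPS calls alone were kept. Counts of called subunits moved as follows. In hippocampus at 6 h (2 called), no filter gave 6, limma-voom 5, the compared groups alone 5 and leaving out A222 and A261 together 1. At 12 h (8 called) and 24 h (8 called), leaving out A222 and A261 gave 2 and 4. In cortex at 6 h (0 called), DESeq2 and limma-voom gave 1. At 12 h (4 called), library totals gave 1 and the compared groups alone 2. At 24 h (1 called), DESeq2 gave 3, limma-voom 7 and the compared groups alone 4. Among times in hippocampus, 12 h against 6 h (0 called) gave 3 with no filter, 1 with DESeq2 and 1 with the compared groups alone; 24 h against 12 h (0 called) gave 2 and 1 with no filter and DESeq2; 24 h against 6 h (4 called) gave 8 with no filter and 7 with limma-voom. In cortex, 12 h against 6 h (1 called) gave 2 with DESeq2 and 0 without A240; 24 h against 6 h (1 called) gave 0 with DESeq2 size factors, library totals, the compared groups alone or without A240.

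With the mouse as a replicate block (random effect), and equally with both tissues in 1 fit, counts were 1, 5 and 5 in hippocampus and 1, 7 and 6 in cortex at 6, 12 and 24 h, 2 for hippocampus at 24 h against 6 h and 2 for cortex at 12 h against 6 h; the block moved no other count by over 1.5 times.

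Leaving out 1 library gave 1 to 2, 5 to 9 and 3 to 10 in hippocampus at 6, 12 and 24 h, with 5 at 12 h without A224 and 3 at 24 h without A222. In cortex it gave 0, 1 to 7 and 0 to 2 (1 at 12 h without saline A223 or A224, 7 without A259; 0 at 24 h without A223, A224, A274 or A278). Among times it gave 2 to 4 for hippocampus at 24 h against 6 h (2 without A240, A242 or A274) and 0 to 1 for both cortical comparisons with 6 h. The tissue count stayed within 20 to 27 of 32. The share of all genes called under each alternative is not given here. Whether the subunits moved with or apart from all genes, and the cause of these moves, was not tested.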
